A study of Mus musculus with 16 samples.

Results

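Catalase and the superoxide dismutases were followed in the lungs of female A/J mice through every non-control probe that the array files name Cat (or its older name Cas1), Sod1, Sod2 or Sod3. This rule took 6 probes, printed on 15 spots, of 41174 distinct probes on 41534 non-control spots of each array. Cat, Sod2 and Sod3 have 1 probe each and Sod1 has 3. All 4 genes were among the 21248 of 27703 gene names that were tested, for which the brightest probe had to exceed background clearly in the lung channel of a whole group.

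The 16 mice fell into 4 groups of 4, and each mouse was hybridised on 1 array. NNK+SECY mice received 1 intraperitoneal injection of NNK, a tobacco-specific nitrosamine that gives rise to lung tumours in this strain (10 uM in 0.2 mL of saline), and were fed 15 ppm selenocystine, a selenium-containing amino acid, for 10 days starting 3 days after the injection. SECY mice received only the selenocystine diet for 10 days, NNK mice only the injection, and Untreated mice neither. The mice injected with NNK were killed 13 days after the injection. All groups were first kept for 1 week on AIN-76 diet, whose basal selenium was 0.35 ppm, and no vehicle injection is named in the labels for SECY or Untreated mice. Lung RNA of each mouse was labelled with Cy5, and an equal mix of RNA of the 4 Untreated mice with Cy3. The unit below is the log2 ratio of Cy5 to Cy3, so that a value of 0 means the level of the untreated pool, apart from any dye effect of the probe that all arrays share. Whole lung holds many cell types, so a lower ratio cannot tell apart fewer cells of a type and less RNA per cell.

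Superoxide is a by-product of respiration and a product of NADPH oxidases. Superoxide dismutases turn it into hydrogen peroxide and oxygen, and catalase, a haem enzyme of peroxisomes, splits hydrogen peroxide into water and oxygen. Sod1 is the copper and zinc enzyme of the cytosol and receives its copper from the chaperone Ccs, Sod2 is the manganese enzyme of mitochondria, and Sod3 is the secreted copper and zinc enzyme, which binds to the extracellular matrix and is known for its high activity in lung and vessel walls. None of the 4 contains selenium, unlike several glutathione peroxidases, which remove peroxides, and the thioredoxin reductases, which support their removal.

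The stretches before the start sites are shown because the question put to these genes is one of transcript level, and because the transcript of Nqo1, a quinone reductase used here as a gene already known from these data to rise with the diet, rose while the ratios of the 4 genes passed no test. Each run is the 250 bases before the gene's start in RefSeq's table of GRCm38.p6, 5′ to 3′ on the gene's own strand. Capitals mark matches, on either strand, to the Sp1 box GGGCGG and to the core of the antioxidant response element, TGACNNNGC, the element that the transcription factor NRF2 is known to bind. The runs lie at chr2:103485154-103485403 on the minus strand for Cat, chr16:90220512-90220761 on the plus strand for Sod1, chr17:13007589-13007838 on the plus strand for Sod2 and chr8:107403206-107403455 on the minus strand for Nqo1. The table gave a promoter for 3 of the 4 genes, the other being Sod3.
Cat: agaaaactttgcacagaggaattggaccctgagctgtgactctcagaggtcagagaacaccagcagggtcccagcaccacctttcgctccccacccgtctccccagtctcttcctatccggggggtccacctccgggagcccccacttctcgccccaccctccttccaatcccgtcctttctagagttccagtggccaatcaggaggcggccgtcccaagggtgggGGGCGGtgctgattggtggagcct
Sod1: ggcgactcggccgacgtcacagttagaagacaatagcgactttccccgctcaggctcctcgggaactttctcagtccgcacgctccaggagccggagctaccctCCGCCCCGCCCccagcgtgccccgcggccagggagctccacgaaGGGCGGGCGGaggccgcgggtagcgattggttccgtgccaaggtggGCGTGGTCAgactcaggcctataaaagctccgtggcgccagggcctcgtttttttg
Sod2: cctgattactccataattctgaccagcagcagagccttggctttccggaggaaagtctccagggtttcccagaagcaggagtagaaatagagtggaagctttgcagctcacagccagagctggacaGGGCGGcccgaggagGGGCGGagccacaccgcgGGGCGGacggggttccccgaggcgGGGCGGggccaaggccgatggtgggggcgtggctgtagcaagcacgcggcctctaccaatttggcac
Nqo1: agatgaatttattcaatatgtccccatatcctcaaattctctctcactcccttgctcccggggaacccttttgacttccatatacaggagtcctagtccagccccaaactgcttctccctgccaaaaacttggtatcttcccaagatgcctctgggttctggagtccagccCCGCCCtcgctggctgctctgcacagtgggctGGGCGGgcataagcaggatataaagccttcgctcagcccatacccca
The element core occurred 1 time before Sod1, beginning 56 bases before the start, and had 0 matches before Cat, Sod2 and Nqo1, against 10.2% of all 32851 promoters of this length that hold it. The Sp1 box occurred 4 times before Sod1, 4 times before Sod2, 1 time before Cat and 2 times before Nqo1, and 32.7% of all promoters hold it. Neither the FoxO site TGTTTAC (3.17% of all promoters) nor the AP-1 site TGANTCA (6.75%) was found before any of the 4 genes shown. The runs of Cat, Sod1 and Sod2 were 62.0%, 66.4% and 63.6% G and C, that of Nqo1 53.2%, and the median promoter 52.4%. A match of letters describes the sequence and is not a bound site, and the lack of one says only that the letters are not in this window.

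Before the genes' values, some facts of the arrays bear on them. Median spot signal per array was 71.2 to 105 in Cy5 and 67.5 to 93.4 in Cy3, and 66.3% to 79.3% of the spots exceeded background clearly in Cy5. The 16 arrays carry 8 slide numbers, each on 2 arrays, with NNK and Untreated mice on 4 of them and NNK+SECY and SECY mice on the other 4, and they were scanned on 2 days, NNK+SECY and NNK on 1 and SECY and Untreated on the other. A slide number is the barcode recorded with the scan. The grid of 206 by 215 features fills a whole slide, so whether both arrays of a number shared 1 slide is not settled. The diet therefore cannot be told apart from the slide set, and the injection cannot be told apart from the scan day. The array of SECY mouse 3 stood apart, with an estimated array weight of 0.202 against 0.554 to 1.89 for the other 15, so values are also given without it. Of the 14 lists of cell and tissue markers examined, that of liver varied most between arrays in summed Cy5 level. Alb, the gene of albumin, had a Cy5 level of 6.82, 10.93, 15.21 and 6.98 in the NNK+SECY mice, 6.94, 7.06, 8.16 and 13.06 in the SECY mice, 7.16, 7.41, 9.76 and 7.95 in the NNK mice, and 6.69, 6.93, 10.43 and 7.20 in the Untreated mice (log2 signal). The arrays of NNK+SECY mouse 3 and SECY mouse 4 were the highest, also for Fgb, a fibrinogen chain made by liver (12.04 and 10.27, against 5.98 to 8.37 on the other 14), so values that move without these 2 arrays are given as well, an alternative added after seeing the data. All 9 markers of alveolar type 2 cells, all 7 of alveolar type 1 cells and all 6 of club cells exceeded background on all 16 arrays. So did all 7 of cardiac muscle, all 5 of mesothelium and 6 of 7 of adipose tissue, so detection alone does not single out lung. The limma p-values set differences between group means against the spread within groups, estimated over all 4 groups and moderated over genes. Each mouse had 1 array, so this spread holds variation between mice and between arrays together. The number of arrays limits the precision of the p-values.

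On the log2 ratio, no gene of the 4 passed the adjusted threshold of 0.05 in any of the 8 comparisons made (limma over all 16 arrays, Benjamini-Hochberg over all genes tested). Averaged over mice with and without NNK, the selenocystine diet left Cat, Sod2 and Sod3 within intervals that include 0, and Sod1 lay 1.08-fold higher at its brightest probe, with an interval above 0 but an adjusted p of 0.119. The 95% intervals of all 4 genes in this average ran from 0.901-fold to 1.14-fold. That range understates the uncertainty of Sod3, whose spot was dim. On the scanner's own processed signals its log2 interval ran from -0.50 to 0.104. Among all genes tested, 2.38% passed in the same diet average, 0.278% in SECY against Untreated, 1.75% in NNK+SECY against NNK, 1.6% in NNK+SECY against Untreated, 0.32% in NNK against Untreated, 0.00942% in NNK+SECY against SECY, 0.283% in the average effect of NNK and 0.00471% in the interaction, which asks whether the injection acts differently with and without the diet. At an unadjusted p under 0.05 in limma, 1 of the 4 genes, Sod1, passed in the diet average (12.3% of all genes), in SECY against Untreated (8.11%) and in NNK+SECY against Untreated (9.23%), and 0 of 4 in the other 5 comparisons.

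**Figure D1:**
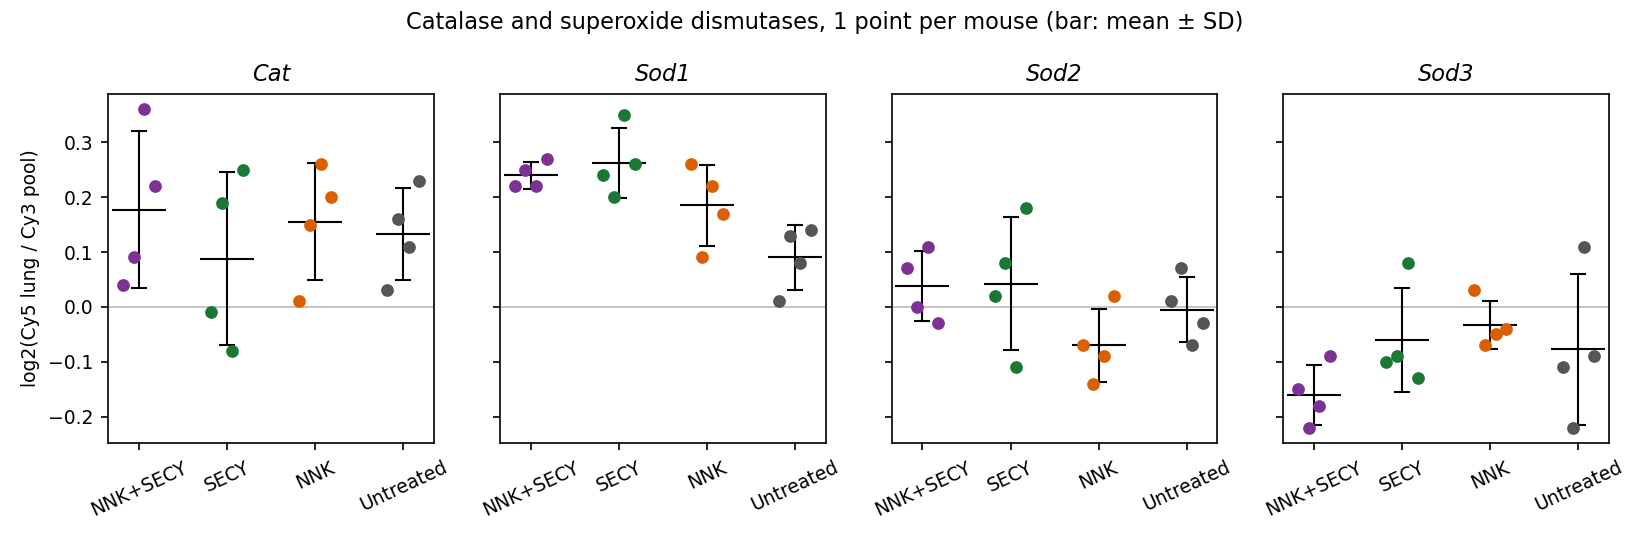
Log2 ratio of Cy5 lung RNA to the Cy3 untreated pool for the brightest probe of Cat, Sod1, Sod2 and Sod3, with 1 point per mouse, the group mean as a long bar and the SD (n = 4) as whiskers. The 4 groups overlap for Cat and Sod2, for Sod1 all 4 SECY and all 4 NNK+SECY points lie above all 4 Untreated points, and for Sod3 all 4 NNK+SECY points lie below all 4 NNK points.

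Sod1, the cytosolic dismutase, was read most brightly by the probe A_51_P367381, designed on the RefSeq transcript NM_011434 and placed by the array's own annotation on chromosome 16 from 89383685 to 89383744 (the sources used here do not name its build, so these positions and those of the promoters are on scales that may differ). Its mean Cy5 signal lay between 14700 and 23930 over the arrays, with 0 saturated spots and 0 spots flagged as outliers. The log2 ratio of Sod1 was 0.22, 0.25, 0.22 and 0.27 in the 4 NNK+SECY mice, 0.24, 0.20, 0.35 and 0.26 in the SECY mice, 0.26, 0.09, 0.22 and 0.17 in the NNK mice, and 0.01, 0.13, 0.08 and 0.14 in the Untreated mice. All 8 mice on the diet thus lay above the 4 Untreated mice, but the NNK mice spread over the range of both, 2 of them within the range of the diet groups.

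The group order of Sod1 was SECY at 0.260 ± 0.0634, NNK+SECY at 0.241 ± 0.0262, NNK at 0.185 ± 0.0742 and Untreated at 0.0896 ± 0.0600 (mean log2 ratio ± SD, n = 4 each), and no neighbours in this order differed by an adjusted test. Sod1 was 1.13-fold higher in SECY than in Untreated lungs (log2 fold change 0.171 ± 0.0489 SE, 95% interval 0.0672 to 0.274, adjusted p = 0.188 in limma, n = 4 each). Without SECY mouse 3, the highest of its group, the log2 difference was 0.142 (adjusted p = 0.222 in limma). NNK+SECY lungs exceeded Untreated lungs by 0.152 ± 0.0489 (interval 0.048 to 0.255, adjusted p = 0.21 in limma). A complete separation of this kind, all 4 arrays of 1 group above all 4 of the other, occurred upwards for 1.74% of all genes tested in SECY against Untreated and for 3.21% in NNK+SECY against Untreated.

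Between the groups injected with NNK, the diet difference of Sod1 was 0.0566 ± 0.0489 (NNK+SECY against NNK, interval -0.047 to 0.16, adjusted p = 0.788 in limma). The interaction was -0.114 ± 0.0692 (interval -0.261 to 0.0323, adjusted p = 1 in limma), so the smaller diet difference after NNK was not shown to differ from that without NNK. Over both strata, the 8 mice on the diet ranged from 0.196 to 0.347 (median 0.246) and the 8 mice without it from 0.00688 to 0.260 (median 0.134), and 6 of the 8 mice without the diet lay below every mouse on it. The average diet effect of 0.114 ± 0.0346 (interval 0.0405 to 0.187, adjusted p = 0.119 in limma) was 0.0993 without SECY mouse 3 (adjusted p = 0.118 in limma). By channel, the average diet difference was 0.0921 in Cy5, the lung RNA, and -0.0217 in Cy3, the pool.

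The other 2 Sod1 probes, A_52_P3581 and A_51_P425205, were designed on the full-length cDNA clone AK080908 and lie 2316 and 3224 bases before the first probe in the array's annotation, from 89381369 to 89381428 and from 89380461 to 89380520 on chromosome 16. Mean Cy5 signals were 135.7 to 194.8 at A_52_P3581 and 66.71 to 100.6 at A_51_P425205, which is printed on 10 spots. The log2 ratio of Sod1 at A_52_P3581 was -0.06, -0.02, -0.02 and 0.23 in NNK+SECY, 0.03, -0.08, -0.11 and 0.11 in SECY, -0.15, -0.16, -0.07 and -0.10 in NNK, and -0.14, -0.01, 0.06 and 0.06 in Untreated mice. All 4 NNK+SECY mice lay above all 4 NNK mice, as they did for 3.3% of all genes, and every other pair of groups overlapped.

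At A_51_P425205 the Sod1 ratio was 0.02, 0.02, 0.07 and 0.16 in NNK+SECY, 0.06, 0.06, -0.05 and 0.07 in SECY, 0.01, 0.02, 0.05 and 0.02 in NNK, and 0.03, 0.03, 0.04 and 0.06 in Untreated mice. All groups overlapped there. The 10 spots of A_51_P425205 on an array had an SD of 0.0602 to 0.121 (median 0.0701), whereas the SD of the 16 array means was 0.0431, so single spots of this probe varied within an array by more than its means varied between mice.

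The SECY against Untreated difference of Sod1 was -0.00242 at A_52_P3581 and -0.00671 at A_51_P425205, where the first probe gave 0.171. In NNK+SECY against NNK it was 0.156 at A_52_P3581 and 0.0422 at A_51_P425205, where the first probe gave 0.0566. The interval at A_52_P3581 was 0.0129 to 0.299 (adjusted p over all probes = 0.448 in limma). The average diet effect was 0.0768 ± 0.0479 at A_52_P3581 (adjusted p over all probes = 0.575 in limma) and 0.0177 ± 0.0304 at A_51_P425205 (adjusted p over all probes = 0.882 in limma). At A_52_P3581 the lung channel was lower, with a Cy5 difference of -0.0788 on the log2 scale and the pool channel still lower, by a Cy3 difference of -0.156. The diet effect at the first probe exceeded that at A_51_P425205 by 0.096 (exact two-sided permutation within NNK strata, 4900 arrangements, p = 0.0335, adjusted over the 2 probe differences 0.067, n = 8 mice with the diet and 8 without) and that at A_52_P3581 by 0.0369 (p = 0.556, the same exact test and adjustment giving 0.556), so neither passed after adjustment. The offset of 50 that was added before the log draws the ratios of both dimmer probes towards 0. It is nearer to the signal of A_51_P425205 than to that of A_52_P3581. On the scanner's processed signals without an offset, an alternative added after seeing the data, the first probe exceeded A_51_P425205 by 0.102 (exact permutation p = 0.144, adjusted 0.288) and A_52_P3581 by 0.0116 (exact permutation p = 0.889, adjusted 0.889). The 3 probes were thus not shown to differ in their average diet effect, and whether the dimmer probes read the same transcript was not tested.

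**Figure D2:**
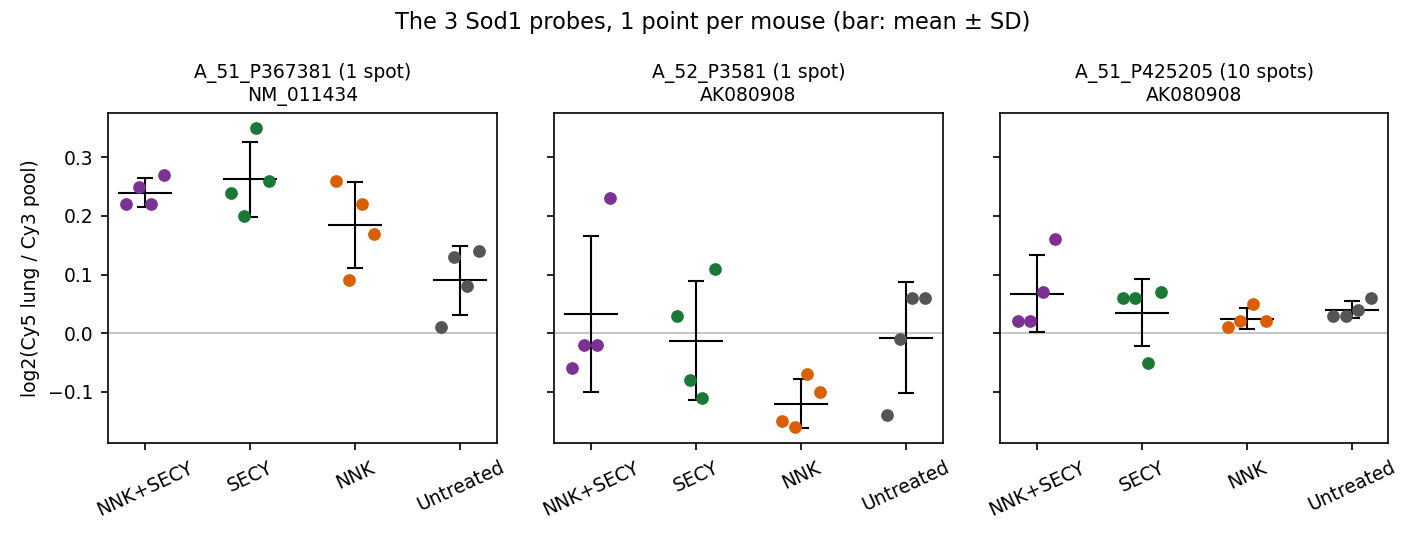
Log2 ratio of Cy5 lung RNA to the Cy3 untreated pool at the 3 Sod1 probes, with 1 point per mouse, the group mean as a long bar and the SD (n = 4) as whiskers. The diet groups sit above Untreated at A_51_P367381 and overlap with it at A_52_P3581 and A_51_P425205.

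Sod2, the mitochondrial dismutase, was read by A_51_P172573, designed on NM_013671 and placed on chromosome 17 from 11517133 to 11517192 in the array's annotation. Its mean Cy5 signal was 4517 to 6806. The log2 ratio of Sod2 was 0.07, 0.00, 0.11 and -0.03 in NNK+SECY, 0.02, 0.08, -0.11 and 0.18 in SECY, -0.07, -0.14, -0.09 and 0.02 in NNK, and 0.01, 0.07, -0.07 and -0.03 in Untreated mice. The SECY mice spread the most widely, all groups overlapped, and 3 of 4 NNK mice lay at its lower end.

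In order, Sod2 stood at 0.0410 ± 0.123 in SECY, 0.0379 ± 0.0642 in NNK+SECY, -0.00405 ± 0.0568 in Untreated and -0.0689 ± 0.0640 in NNK lungs (mean log2 ratio ± SD, n = 4 each), and no neighbours in this order differed by an adjusted test. Its largest pairwise difference among the 5 tested was 0.107 ± 0.0598, in NNK+SECY against NNK (interval -0.0198 to 0.233, adjusted p = 0.604 in limma). The average diet effect was 0.0759 ± 0.0423 (interval -0.0136 to 0.165, adjusted p = 0.513 in limma) and was 0.102 without SECY mouse 3, which was the lowest of its group (adjusted p = 0.151 in limma). SECY differed from Untreated by 0.045 (adjusted p = 0.926 in limma), a value that became 0.097 without SECY mouse 3 (adjusted p = 0.516 in limma).

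Sod3, the extracellular dismutase, was read by A_51_P342969, designed on NM_011435 and placed on chromosome 5 from 51178880 to 51178939. This spot was dim, with a mean Cy5 signal of 57.47 to 87.18 before background correction. It exceeded background clearly on all 16 arrays in Cy5 and on 10 of 16 in Cy3. The log2 ratio of Sod3 was -0.15, -0.22, -0.18 and -0.09 in NNK+SECY, -0.10, -0.09, 0.08 and -0.13 in SECY, 0.03, -0.07, -0.05 and -0.04 in NNK, and -0.11, -0.22, 0.11 and -0.09 in Untreated mice. All 4 NNK+SECY mice lay below all 4 NNK mice, while the Untreated mice spread over the range of every group. Such a separation, with NNK+SECY lower, occurred for 5.18% of all genes in NNK+SECY against NNK.

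Sod3 stood at -0.0319 ± 0.0444 in NNK, -0.0576 ± 0.0927 in SECY, -0.0782 ± 0.139 in Untreated and -0.161 ± 0.0531 in NNK+SECY lungs (mean log2 ratio ± SD, n = 4 each), of which SECY against Untreated and NNK+SECY against Untreated did not pass and NNK against SECY was not tested. NNK+SECY was lower than NNK by -0.13 ± 0.0643 on the log2 scale (interval -0.266 to 0.00652, adjusted p = 0.539 in limma). The average diet effect was -0.0545 ± 0.0455 (interval -0.151 to 0.0417, adjusted p = 0.697 in limma), and -0.0773 without SECY mouse 3 (adjusted p = 0.365 in limma). SECY against Untreated was 0.0205 with that mouse and -0.0249 without it (adjusted p = 0.921 in limma). The offset of 50 added before the log is close to the signal of this spot, so it draws its ratios towards 0. On the scanner's own processed signals, which carry no such offset, the ratios of Sod3 were -0.18, -0.58, -0.65 and -0.29 in NNK+SECY, -0.09, -0.06, 0.21 and -0.34 in SECY, 0.00, -0.22, 0.13 and -0.17 in NNK, and -0.28, -0.49, 0.67 and -0.03 in Untreated mice. The average diet effect was then -0.198 ± 0.142 with an interval from -0.50 to 0.104, and NNK+SECY differed from Untreated by -0.392 ± 0.201 (interval -0.819 to 0.0344, adjusted p = 0.648 in limma). Differences of that size were not resolved for this gene.

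Cat, the catalase of peroxisomes, was read by A_52_P679769, designed on NM_009804 and placed on chromosome 2 from 103159258 to 103159317, with a mean Cy5 signal of 2525 to 4289. The log2 ratio of Cat was 0.04, 0.09, 0.36 and 0.22 in NNK+SECY, -0.01, 0.19, -0.08 and 0.25 in SECY, 0.01, 0.15, 0.26 and 0.20 in NNK, and 0.03, 0.16, 0.11 and 0.23 in Untreated mice. Each group held both low and high mice, and all 4 overlapped.

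Cat stood at 0.177 ± 0.146 in NNK+SECY, 0.155 ± 0.106 in NNK, 0.131 ± 0.0807 in Untreated and 0.0888 ± 0.156 in SECY lungs (mean log2 ratio ± SD, n = 4 each), each within the SD of the others. The average diet effect was -0.0102 ± 0.0591 (interval -0.135 to 0.115, adjusted p = 0.972 in limma), and without SECY mouse 3, the lowest of its group, it was 0.0173 (adjusted p = 0.911 in limma). SECY against Untreated gave -0.0421 (adjusted p = 0.95 in limma), or 0.0128 without that mouse (adjusted p = 0.974 in limma). The highest ratios of Cat in the NNK+SECY and SECY groups belonged to the 2 arrays highest in liver markers. The arrays next highest in Alb were NNK+SECY mouse 2 (10.93), Untreated mouse 3 (10.43) and NNK mouse 3 (9.76). Their Cat ratios were 0.09, 0.11 and 0.26, only the last being the highest of its group. Liver is itself rich in catalase, but its part in these ratios was not tested. Without the 2 arrays highest in liver markers, the average diet effect on Cat was -0.0689 (adjusted p = 0.738 in limma), SECY against Untreated -0.097, and NNK+SECY against Untreated -0.0165 in place of 0.046. The same 2 arrays left out gave diet averages of 0.117 for Sod1, 0.0409 for Sod2 and -0.0395 for Sod3 (adjusted p-values of 0.236 to 0.864 in limma). The Cy3 level of Cat, which measured the same pool on every array, differed by 0.216 on the log2 scale between group means, against a median of 0.182 over all genes. The corresponding Cy3 range was 0.0609 for Sod1, 0.109 for Sod2 and 0.175 for Sod3.

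The Cy5 level alone, which is not divided by the pool channel although both dyes entered its normalization, gave 1 call among the 4 genes. The Cy5 level of Sod3 was 6.12, 6.10, 6.01 and 6.02 in NNK+SECY, 6.16, 6.22, 6.47 and 6.02 in SECY, 6.34, 6.26, 6.18 and 6.08 in NNK, and 6.34, 6.35, 6.41 and 6.20 in Untreated mice. It averaged 6.065 ± 0.0571 in NNK+SECY, 6.218 ± 0.186 in SECY, 6.214 ± 0.111 in NNK and 6.323 ± 0.0899 in Untreated lungs (log2 signal after Aquantile scaling, SD, n = 4 each). All 4 NNK+SECY mice lay below all 4 Untreated mice, as they did in Cy5 for 10.5% of all genes. NNK+SECY fell below Untreated by 0.258 on this scale (log2 difference -0.258, adjusted p = 0.0494 in limma), where 15.5% of all genes passed. In the same comparison the Cy3 level of Sod3, measured on 1 common pool, differed by -0.175, and the ratio by -0.0833. Leaving out each of the 16 arrays in turn, a check added after seeing the data, kept the Cy5 call in 5 cases, with log2 differences from -0.301 to -0.231 and adjusted p-values from 0.0155 (without SECY mouse 3) to 0.121 (without Untreated mouse 3) in limma.

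The other levels did not pass. Cat in Cy5 averaged 11.35 ± 0.239 in NNK+SECY, 11.48 ± 0.172 in SECY, 11.49 ± 0.247 in NNK and 11.43 ± 0.224 in Untreated lungs. Sod1 at its bright probe averaged 14.00 ± 0.0205 in NNK+SECY, 14.05 ± 0.073 in SECY, 13.96 ± 0.113 in NNK and 13.91 ± 0.0522 in Untreated lungs. Sod2 averaged 12.29 ± 0.044 in NNK+SECY, 12.19 ± 0.149 in SECY, 12.13 ± 0.0434 in NNK and 12.15 ± 0.0939 in Untreated lungs (SD, n = 4 each). The average diet difference in Cy5 was -0.0448 for Cat, 0.0921 for Sod1, 0.102 for Sod2 and -0.127 for Sod3, with adjusted p-values of 0.0952 to 0.771 in limma, in a comparison in which 31.2% of all genes passed on this scale. The shares of all genes that passed in Cy5 were 21.7% in SECY against Untreated, 7.69% in NNK+SECY against NNK, 2.17% in NNK against Untreated, 0.137% in NNK+SECY against SECY, 2.8% in the NNK average and 0% in the interaction, and 0 of the 4 genes passed in any of these 6 (limma).

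For the injection, no difference of the 4 genes passed. NNK against Untreated was 0.0243 for Cat, 0.0949 for Sod1, -0.0649 for Sod2 and 0.0463 for Sod3, each with an adjusted p of 1 in limma. Between arrays that share a slide number (called a slide below), NNK exceeded Untreated on 1 of 4 slides for Cat, 3 of 4 for Sod1 at its bright probe, 1 of 4 for Sod2 and 3 of 4 for Sod3. At the dimmer Sod1 probes this held on 0 of 4 slides for A_52_P3581 (-0.161 to -0.00604) and on 1 of 4 for A_51_P425205 (-0.0389 to 0.00951). NNK+SECY against SECY was 0.0882 for Cat, -0.0193 for Sod1, -0.00308 for Sod2 and -0.104 for Sod3, with adjusted p-values of 0.855 to 0.997 in limma. Here NNK+SECY exceeded SECY on 2 of 4 slides for Cat, Sod1 (bright probe and A_51_P425205) and Sod2 alike, on 3 of 4 at the Sod1 probe A_52_P3581, and on 1 of 4 for Sod3. Without SECY mouse 3, the difference between NNK+SECY and SECY was 0.0332 for Cat, 0.0095 for Sod1, -0.055 for Sod2 and -0.0584 for Sod3, and the adjusted p-values were 0.848 to 0.98 in limma. The average NNK effects were 0.0562 (interval -0.069 to 0.181) for Cat, 0.0378 (-0.0354 to 0.111) for Sod1, -0.034 (-0.123 to 0.0555) for Sod2 and -0.0288 (-0.125 to 0.0675) for Sod3. These averages without SECY mouse 3 were 0.0287 for Cat, 0.0522 for Sod1, -0.06 for Sod2 and -0.00606 for Sod3, and the interaction was 0.00891 for Cat, -0.0854 for Sod1, 0.00984 for Sod2 and -0.105 for Sod3, none of them passing in limma.

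**Figure D3:**
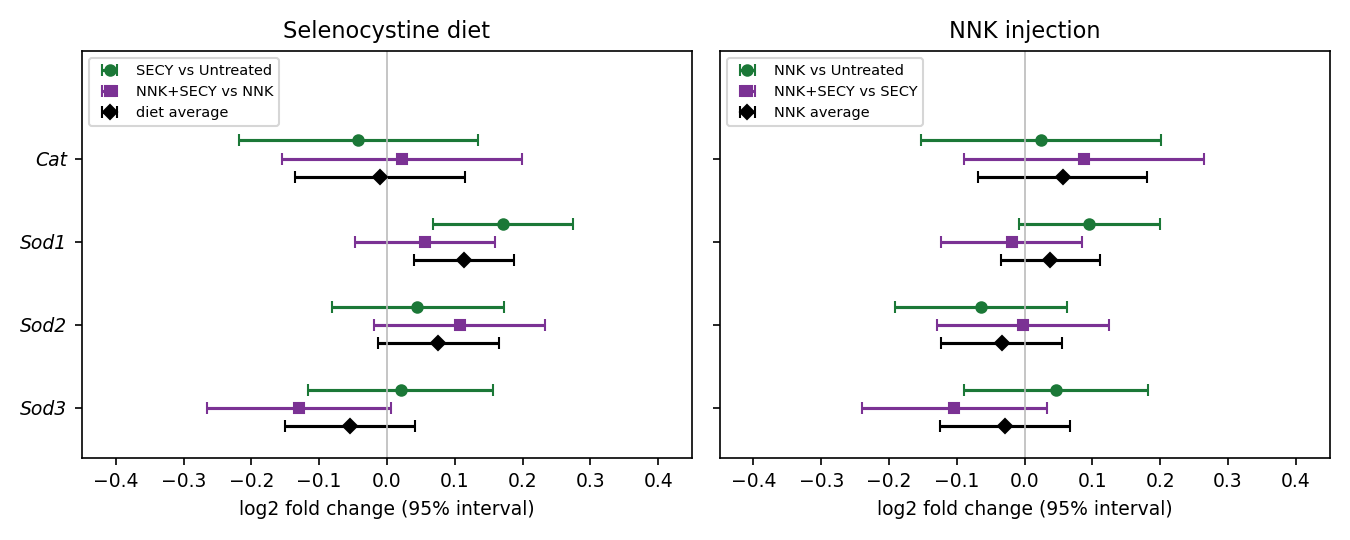
Log2 fold changes of Cat, Sod1, Sod2 and Sod3 with 95% intervals from the fit over 16 arrays, for the selenocystine diet (left) and the NNK injection (right), each without and with the other treatment and averaged. The intervals of Sod1 for SECY against Untreated and for the diet average lie above 0, and every other interval includes 0.

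Nqo1 shows what a diet response of large size looked like in the same lungs, although it was chosen here with its rise known. Its log2 ratio averaged 1.56 ± 0.283 in NNK+SECY and 1.51 ± 0.283 in SECY, against 0.179 ± 0.0786 in NNK and 0.0734 ± 0.120 in Untreated lungs (SD, n = 4 each). The diet effect on Nqo1 exceeded that on Cat by 1.42, on Sod1 by 1.29, on Sod2 by 1.33 and on Sod3 by 1.46 on the log2 scale, which is a description and carries no test.

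None of the tested genes that supply metal to the dismutases passed. Of 16 genes that carry copper, zinc or manganese to superoxide dismutases or handle mitochondrial iron and metals, 15 were tested, and 0 rose and 0 fell with the diet (median log2 fold change 0.0118, against a median near 0 over all genes, of which 2.38% passed). Ccs, the copper chaperone of Sod1, stood at 0.051 ± 0.0408 (adjusted p = 0.684 in limma). The list's smallest p-values belonged to Slc25a37, a mitochondrial iron importer, at -0.492, and Sco1, a copper chaperone of cytochrome oxidase, at 0.0692, neither passing. At an unadjusted p under 0.05 in limma, 0 of the 15 passed, against 12.3% of all genes.

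Sources of superoxide and hydrogen peroxide differed at 2 of 18 genes tested of 20, where 2.38% of all genes passed. Aox1, an aldehyde oxidase that gives off both species, rose with the diet by 0.783 ± 0.0561 (adjusted p = 3.9e-07 in limma), its ratio averaging 0.527 ± 0.0626 in NNK+SECY and 0.661 ± 0.143 in SECY, against -0.229 ± 0.126 in NNK and -0.148 ± 0.125 in Untreated lungs. Duox2, a dual oxidase of airway epithelium that releases hydrogen peroxide, fell by 1.15 ± 0.172 on the log2 scale (adjusted p = 0.000569 in limma). Duox2 passed in NNK+SECY against NNK (-1.53, adjusted p = 0.00191 in limma) but not in SECY against Untreated (-0.783, adjusted p = 0.246 in limma). Its ratio averaged -1.33 ± 0.373 in NNK+SECY and -0.941 ± 0.593 in SECY, against 0.195 ± 0.25 in NNK and -0.158 ± 0.264 in Untreated lungs. The list's median was -0.048, and the 16 other genes did not pass.

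Several enzymes that remove hydrogen peroxide by way of thiols or selenium, or that support its removal, rose with the diet. Of 15 tested, 4 rose and 0 fell (median 0.0403), where 2.38% of all genes passed in either direction. Srxn1, which restores over-oxidised peroxiredoxins, rose by 1.32 ± 0.0906, Gpx2, an epithelial glutathione peroxidase with selenium at its active site, by 0.974 ± 0.0786, Txnrd1, the cytosolic thioredoxin reductase, also a selenoprotein, by 0.803 ± 0.0649, and Prdx6, a peroxiredoxin abundant in lung, by 0.376 ± 0.0734, with adjusted p of 0.00658 or lower in limma. Prdx6 passed in this average but not in SECY against Untreated (0.415, adjusted p = 0.119 in limma) or NNK+SECY against NNK (0.338, adjusted p = 0.168 in limma). The 2 dimmer Srxn1 probes gave 0.447 and 0.584, and the 3 dimmer Prdx6 probes 0.416, 0.075 and 0.351. Without SECY mouse 3, 5 of the 15 rose, the added gene being Prdx1, another peroxiredoxin, where 4.04% of all genes passed.

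Peroxisomes, the organelle of catalase, are built by peroxins and fed with substrates by membrane transporters. Of 19 genes of peroxisome assembly, 0 rose and 0 fell with the diet (median 0.00149). The list's smallest p-values belonged to Abcd3, a peroxisomal membrane transporter, at -0.144, and Pex11a, a peroxisome division factor, at 0.154. At an unadjusted p under 0.05 in limma, 0 of the 19 passed, against 12.3% of all genes. Of 17 tested genes of peroxisomal oxidation, of 20 listed, Acox2, an oxidase of bile acid intermediates and branched fatty acids that itself makes hydrogen peroxide, rose by 0.456 ± 0.0601 (adjusted p = 0.000263 in limma), and 0 fell (median 0.0477), against 2.38% of all genes passing. Its ratio averaged 0.718 ± 0.192 in NNK+SECY and 0.453 ± 0.110 in SECY, against 0.265 ± 0.0973 in NNK and -0.00583 ± 0.0874 in Untreated lungs. Without SECY mouse 3, 1 gene of this list fell, Decr2, a reductase of peroxisomal fatty acid oxidation (4.04% of all genes passed). Acox2 is also made by liver, and its diet effect was 0.419 ± 0.0609 without the 2 arrays highest in liver markers (adjusted p = 0.00157 in limma, 2.1% of all genes passing). Without these 2 arrays the calls of Aox1, Duox2, Srxn1, Gpx2, Txnrd1 and Prdx6 held too, and 0 other genes of the 6 lists passed.

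Of 16 regulators of antioxidant genes, among them Nfe2l2, which encodes NRF2, and the FoxO factors, 0 rose and 0 fell with the diet (median -0.00184), and 2 of the 16 had an unadjusted p under 0.05 in limma, as did 12.3% of all genes. The smallest p-values belonged to Nfkb1 at -0.173 (adjusted p = 0.102 in limma) and Ppara at 0.19 (adjusted p = 0.25 in limma). With the injection, on average, 0 genes of any of the 6 lists passed in limma (0 to 3 per list at an unadjusted p under 0.05, against 6.81% of all genes), the medians running from 0.00161 for the list of peroxide removal to 0.0625 for the regulators. The lists, like the 4 genes, were chosen with earlier results of these data known and carry no test of their own.

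**Figure D4:**
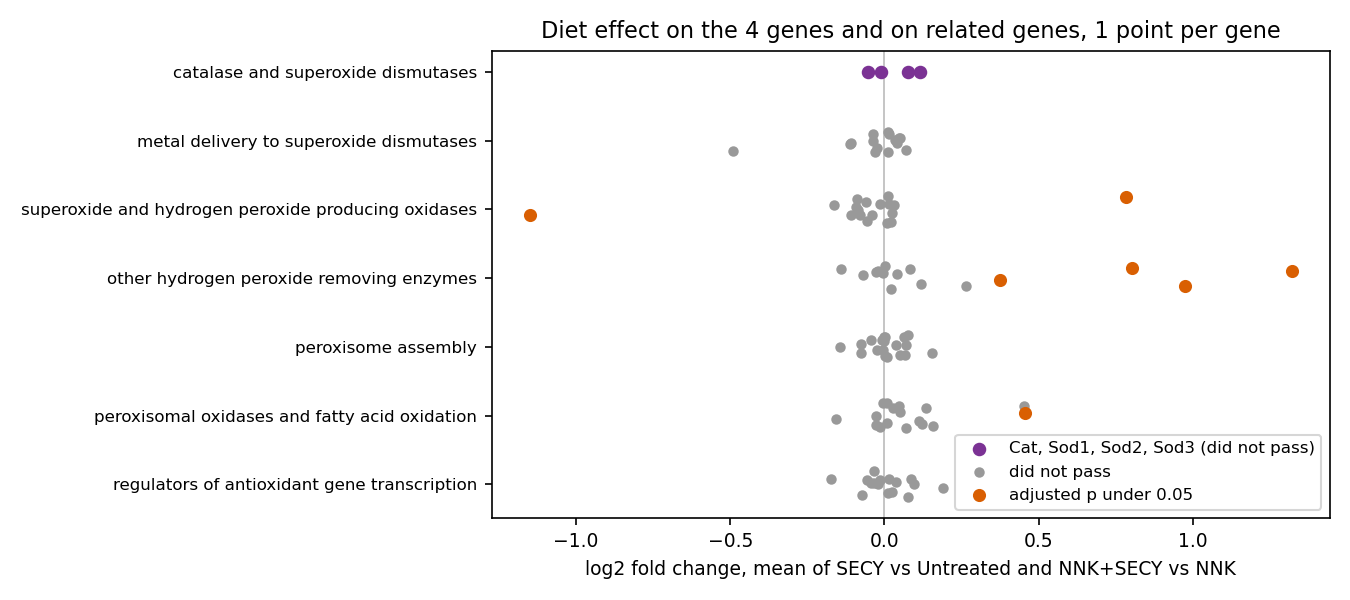
Diet effect (log2 fold change averaged over mice with and without NNK) of Cat, Sod1, Sod2 and Sod3 (top row) and of the tested genes of 6 related lists, 1 point per gene, with vertical jitter within a row. The 4 genes lie between -0.0545 and 0.114, while Srxn1, Gpx2, Txnrd1, Prdx6, Aox1 and Acox2 passed to the right and Duox2 to the left.

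Red cell precursors also express Cat and Sod1, and markers of other cells are given here for that reason. All 7 tested erythroid markers were below 0 in the diet average (median -0.155, range -0.45 to -0.0704, 0 passing) and all 7 above 0 in the NNK average (median 0.0616). The summed Cy5 level of these 7 ran from 101000 to 109000 in NNK+SECY, 91500 to 114000 in SECY, 102000 to 118000 in NNK and 96800 to 126000 in Untreated lungs. Of the 8 erythroid markers on the array, 6 exceeded background on all 16 arrays and 1 on none.

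Liver also expresses Cat strongly. Of 5 liver markers, 4 are on the array, 1 of them (Alb) exceeded background on all 16 arrays and 0 on none, and 2 (Alb and Fgb) were tested. Their diet effects were 0.809 and 0.817, neither passing, and their median was 0.0139 without the 2 highest arrays. Their median in the NNK average was 0.263. Their summed Cy5 level ran from 177 to 42100 in NNK+SECY, 188 to 9750 in SECY, 215 to 1040 in NNK and 170 to 1680 in Untreated lungs. Adipose markers also ran widely, from 3000 to 11700 in NNK+SECY and 4390 to 8090 in SECY, against 3640 to 4940 in NNK and 4470 to 5890 in Untreated lungs.

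In the diet average, 4 markers of the 14 cell and tissue lists passed in limma, where 2.38% of all genes passed. Aldh1a1, an aldehyde dehydrogenase counted with the club cell markers, rose by 0.658, while Col1a2 of fibroblasts fell by 0.309, Car4, listed for alveolar macrophages, by 0.263 and Msln of mesothelium by 0.271. The calls without SECY mouse 3 were Aldh1a1, Car4 and Msln again, 3 of fibroblasts and smooth muscle (Col1a1, Col1a2 and Tagln) and 1 of lymphocytes (Cd3e), where 4.04% of all genes passed. Without the 2 arrays highest in liver markers Aldh1a1 alone passed, as did 2.1% of all genes. All 8 tested lymphocyte markers and all 7 of cardiac muscle lay below 0 with the diet (medians -0.0805 and -0.168), as did 6 of 7 of neutrophils and monocytes (-0.164), 8 of 9 of alveolar type 2 cells (-0.0893), 7 of 8 of endothelium (-0.0809), 8 of 10 of fibroblasts and smooth muscle (-0.0985) and 4 of 5 of mesothelium (-0.103). The erythroid and liver values are given above. The medians of the remaining lists were -0.0599 for alveolar type 1 cells, -0.0186 for club cells, -0.0519 for alveolar macrophages, 0.0487 for ciliated cells and 0.0385 for adipose tissue.

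In the NNK average 0 markers of the 14 lists passed in limma, and 0 to 3 per list had an unadjusted p under 0.05 (6.81% of all genes). All 7 ciliated markers (median 0.175), all 8 lymphocyte markers (0.0846) and all 7 neutrophil and monocyte markers (0.0785) lay above 0, and 6 of 7 adipose markers below it (median -0.106). The medians were 0.0616 for erythroid and 0.263 for liver markers, as given above. Those of the remaining lists ran from -0.0376 for fibroblasts and smooth muscle to 0.0331 for mesothelium. In NNK against Untreated lungs Cd3e, a T cell receptor component, rose by 0.436, where 0.32% of all genes passed. It fell by 0.355 in NNK+SECY against NNK, where 1.75% of all genes passed. The part of other cells and tissues in the values of Cat and the dismutases was not tested beyond the values without the 2 arrays highest in liver markers.

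Correlations between the 4 genes were of either sign. Over the 16 arrays, which share the Cy3 pool and fall into 4 groups, Pearson's r was 0.39 between Cat and Sod2, -0.103 between Cat and Sod1, -0.366 between Cat and Sod3, 0.0639 between Sod1 and Sod2, 0.0587 between Sod1 and Sod3, and -0.627 between Sod2 and Sod3. Among the Sod1 probes, r was 0.238 between the first and A_52_P3581, -0.00659 between the first and A_51_P425205, and 0.77 between A_52_P3581 and A_51_P425205.

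Likeness was sought among 15137 tested genes with a value on all arrays, leaving out those whose names are clones or accessions. The patterns most like that of Cat over the 16 arrays were those of Insr, the insulin receptor (r = 0.855), Rnf103 (0.826), Fastkd3 (0.814) and Vmn1r42 (0.808). For Sod1 they were Wfdc2, a secreted airway protein (0.851), Thap4 (0.827), Slc39a4, a zinc importer (0.827), and Mmp23 (0.817). For Sod2 they were Olfr430 (0.863), Dnajb14 (0.833), Pgrmc1 (0.821) and Mterf1a (0.819), and for Sod3 Cblc (0.875), Gtpbp6 (0.856), Olfml2b (0.828) and Osr1 (0.817). These are the highest of many correlations over few arrays and are given as a description.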

How the data were processed

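Lung RNA of 16 mice (Cy5) was hybridised against a pool of the untreated lungs (Cy3) on 16 two-colour arrays with no dye swap. Per the file headers, the scanner images were read with version 8.1.1.1 of Feature Extraction. The authors deposited spot and background intensity on a linear scale, processed intensity, and the log10 of the Cy5 to Cy3 ratio. The deposited value table holds log2 ratios that equal this log10 ratio on the log2 scale within 0.005, with a median of 0 in every column.

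From the mean spot signals, limma 3.58.1 (R 4.3.3, with version 1.17.8 of data.table) corrected the background by normexp with an offset of 50 and normalized within arrays by loess, with control and outlier spots at weight 0. Spots of a probe were averaged, and the brightest probe stood for its gene. Probes were named by RefSeq accession (22072), symbol (6280) or synonym (4226) in a GRCm38.p6 table, and 8596 kept the file's name. Levels per dye were taken after Aquantile scaling. lmFit and eBayes were run over all 16 arrays with a mean for each group, with two-sided p-values adjusted by Benjamini-Hochberg over all genes tested and a threshold of 0.05. The fit was tested on simulated data.

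The 8 comparisons were 5 pairs, the interaction, and the averages of the diet and NNK effects. Named were the 4 genes with every probe, up to 4 passing genes per list and comparison with the smallest p (or up to 2 values where none passed), the 4 genes most like each of the 4 by Pearson's r, Nqo1 and Ccs. Alternatives were other signals, centring, filters, weights, blocks, leaving out each array and, added after seeing the data, leaving out the 2 arrays highest in liver markers. The members and lists were chosen with earlier results of these data known.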

Additional observations from a re-analysis of the deposited data

Results flagged for a closer look

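Of 24 sets of 4 mice checked (6 probes in 4 groups), 2 held a mouse far from the other 3 by Dixon's criterion, and chance flags about 1 set in 20. Both were at the dimmer Sod1 probes. At A_52_P3581, NNK+SECY mouse 4 had a log2 ratio of 0.233, where the other 3 of its group lay between -0.0571 and -0.0159. At A_51_P425205, SECY mouse 3 had a log2 ratio of -0.0506, where the other 3 of its group lay between 0.0574 and 0.0652. SECY mouse 3 is also the array with the lowest estimated weight.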

How the results depend on the processing

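Under all alternatives run (at most 28 per comparison), 820 of 872 values of Cat, Sod1, Sod2 and Sod3 kept their direction and their side of the threshold, 51 changed sign without passing and 1 passed. Many of these values could not change direction. Filters, blocks and leaving out an array of a group outside the comparison leave the log2 fold change itself as it was. The share that kept its direction is therefore no measure of robustness. The one that passed was Sod3 in NNK+SECY against Untreated on the Cy5 level alone (-0.258, adjusted p = 0.0494 in limma), a setting in which 3298 genes passed. Sod1 kept its sign in every alternative of SECY against Untreated (0.12 to 0.192), NNK+SECY against Untreated (0.0186 to 0.167) and the diet average (0.0665 to 0.126, adjusted p 0.0842 to 0.512 in limma).

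Sign changes on the Cy5 level were Cat in SECY against Untreated (0.0514), NNK+SECY against NNK (-0.141), NNK+SECY against SECY (-0.128), NNK+SECY against Untreated (-0.0769), the interaction (-0.192) and the NNK average (-0.032), Sod1 in the NNK average (-0.0014), Sod2 in NNK+SECY against SECY (0.106) and the NNK average (0.0428), and Sod3 in SECY against Untreated (-0.105) and NNK against Untreated (-0.109). With median centring in place of loess they were Cat in NNK+SECY against NNK (-0.0109), NNK against Untreated (-0.0526), NNK+SECY against Untreated (-0.0636) and the NNK average (-0.00886), Sod1 in the NNK average (-0.0479), and Sod2 in SECY against Untreated (-0.0124) and NNK+SECY against Untreated (-0.0683). With array weights they were Sod3 in SECY against Untreated (-0.00839), Cat in NNK against Untreated (-0.000455), Sod1 in NNK+SECY against SECY (0.00327) and Sod2 in the interaction (-0.00136). On the processed signals and the authors' table, Sod3 changed sign in SECY against Untreated (-0.0373 and -0.0375) and NNK against Untreated (-0.0331 and -0.0325). Without the 2 arrays highest in liver markers (SECY mouse 4 and NNK+SECY mouse 3), an alternative added after seeing the data, they were Cat in NNK+SECY against NNK (-0.0408) and NNK+SECY against Untreated (-0.0165), and Sod2 in SECY against Untreated (-0.000838) and NNK+SECY against SECY (0.0185). The causes were not tested.

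Leaving out 1 array moved Cat from -0.097 to 0.0128 in SECY against Untreated, -0.0408 to 0.0685 in NNK+SECY against NNK, -0.00984 to 0.0727 in NNK against Untreated, -0.0165 to 0.0928 in NNK+SECY against Untreated and -0.0415 to 0.0173 in the diet average. It moved Sod1 from -0.0409 to 0.0095 in NNK+SECY against SECY, Sod2 from -0.000838 to 0.097 in SECY against Untreated and -0.055 to 0.0428 in NNK+SECY against SECY, and Sod3 from -0.0256 to 0.0845 in SECY against Untreated and -0.0519 to 0.0032 in the NNK average. Without SECY mouse 3, the NNK average was 0.0287 for Cat and -0.06 for Sod2.

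Counts of all genes that passed moved more. On the Cy5 level they were 4619 in SECY against Untreated, 1633 in NNK+SECY against NNK, 462 in NNK against Untreated, 29 in NNK+SECY against SECY, 6632 in the diet average, 595 in the NNK average and 0 in the interaction. Array weights gave 222 in SECY against Untreated, 1178 in the diet average and 113 in the NNK average. The processed signals and the authors' table each gave 22 in NNK against Untreated, 19 in the NNK average, and 0 in NNK+SECY against SECY and the interaction. Median centring gave 41 in NNK against Untreated and 0 in the interaction, the slide as a block 113 in NNK against Untreated and 0 in NNK+SECY against SECY, and for the interaction no filter gave 0, all probes 2 and the slide as a random block, added after seeing the data, 3. Without the 2 arrays highest in liver markers, 16 genes passed in the NNK average and 0 in NNK+SECY against SECY and the interaction. Leaving out 1 array gave 44 to 232 in SECY against Untreated, 18 to 131 in NNK against Untreated, 0 to 7 in NNK+SECY against SECY, 164 to 428 in NNK+SECY against Untreated, 0 to 3 in the interaction, 407 to 857 in the diet average (857 without SECY mouse 3) and 28 to 119 in the NNK average.

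Replicate numbers were not used to pair the mice in the main fit. Same-numbered mice correlated above 0.1 in 1 to 3 of 4 pairs per pair of groups, with values from -0.122 to 0.503. Differently numbered mice were not compared, so whether the numbers pair the mice was not settled. With the replicate block, 110 genes passed in SECY against Untreated (59 without it) and 2 in the interaction (1 without it), and no call of the 4 genes changed. The dim spot of Sod3 and the 4 arrays per group limit what could be resolved.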
